A study of Mus musculus with 10 samples.

Results

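The collagen alpha chain genes are described here in inguinal white fat, a depot under the skin of the groin, of mice with and without PexRAP in their adipose tissue. The members were the rows of the count table whose biotype is protein-coding and whose symbol has the form of Col, a number, a and a number. There were 44 such genes among 40501 gene identifiers, and symbol and biotype alone chose them. RNA-seq was done on 5 PexRAP-AKO mice (replicates 1, 2, 3, 5 and 6), which carry Cre and lack PexRAP in adipose tissue, and on 5 Control mice (replicates 2, 3, 5, 7 and 8), which are Cre-negative. All 10 were males on the C57/BL6J background on chow diet, and the labels name 8 weeks both as their age and as the time on chow. The sources used here give neither the promoter that drives Cre nor the alleles of the Control mice. PexRAP, encoded by Dhrs7b, is a reductase of the peroxisomal route of ether lipid synthesis.

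Collagens are triple helices of 3 alpha chains, and each chain has its own gene. Fibrillar collagens (types I, III and V among others) form the fibrils that carry load, type IV forms the sheet of basement membranes, and type VI forms beaded filaments around cells. In fat, each adipocyte sits in a basement membrane, and fibroblasts and adipose progenitors make most of the fibrillar matrix between the lobules. Chains of 1 trimer need each other to fold, so the balance of partner chains is of interest as well as their level.

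None of the collagen genes passed the test between PexRAP-AKO and Control. Of the 44, 35 had enough counts to be tested, and 0 of the 35 had a Benjamini-Hochberg adjusted p under 0.05 in edgeR's quasi-likelihood test, against 0.101% of all 14913 genes tested (0.0939% higher and 0.00671% lower). At an unadjusted p under 0.05 there was 1 member, Col28a1, which was lower, against 15.5% of all genes (9.01% higher and 6.44% lower). DESeq2, which called 3.75% of the genes it adjusted, and limma voom, which called 0.127%, also called 0 members and had 1 under an unadjusted p of 0.05. DESeq2 gave no adjusted p for 19 of the 44 members, which it therefore could not call. With sample quality weights voom called 0.717% of all genes and 0 members, and 0 members were under an unadjusted p of 0.05. Of the 35, 15 had a positive and 20 a negative log2 fold change, with a median of -0.01, beside -0.00064 and 50.2% negative over all genes. Levels are given as CPM, the counts of a gene per 1000000 counts of a library after TMM scaling. For 0 of the 35 did the CPM of the groups not overlap, against 3.41% of all genes.

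The 95% interval of the fold change lay within 2-fold in either direction for 29 of the 35, and within 1.5-fold for 17. The intervals of Col24a1, Col28a1, Col4a3, Col4a4, Col4a6 and Col6a5 reached past 2-fold. Leaving out a single library turned the sign or moved the log2 fold change by over 1.5 times for 33 of the 35, all but Col24a1 and Col28a1. Where the log2 fold change is small, as for many of these genes, a small shift is enough. The share of all genes moved in this way is not given here. Differences inside the 95% intervals remain possible with 5 mice a group. The intervals are not adjusted over genes and are not a limit of detection. That of Col28a1 ran from -1.08 to -0.14, and the gene was not called. In bulk tissue, fewer cells of a type and less RNA per cell cannot be told apart.

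**Figure D1:**
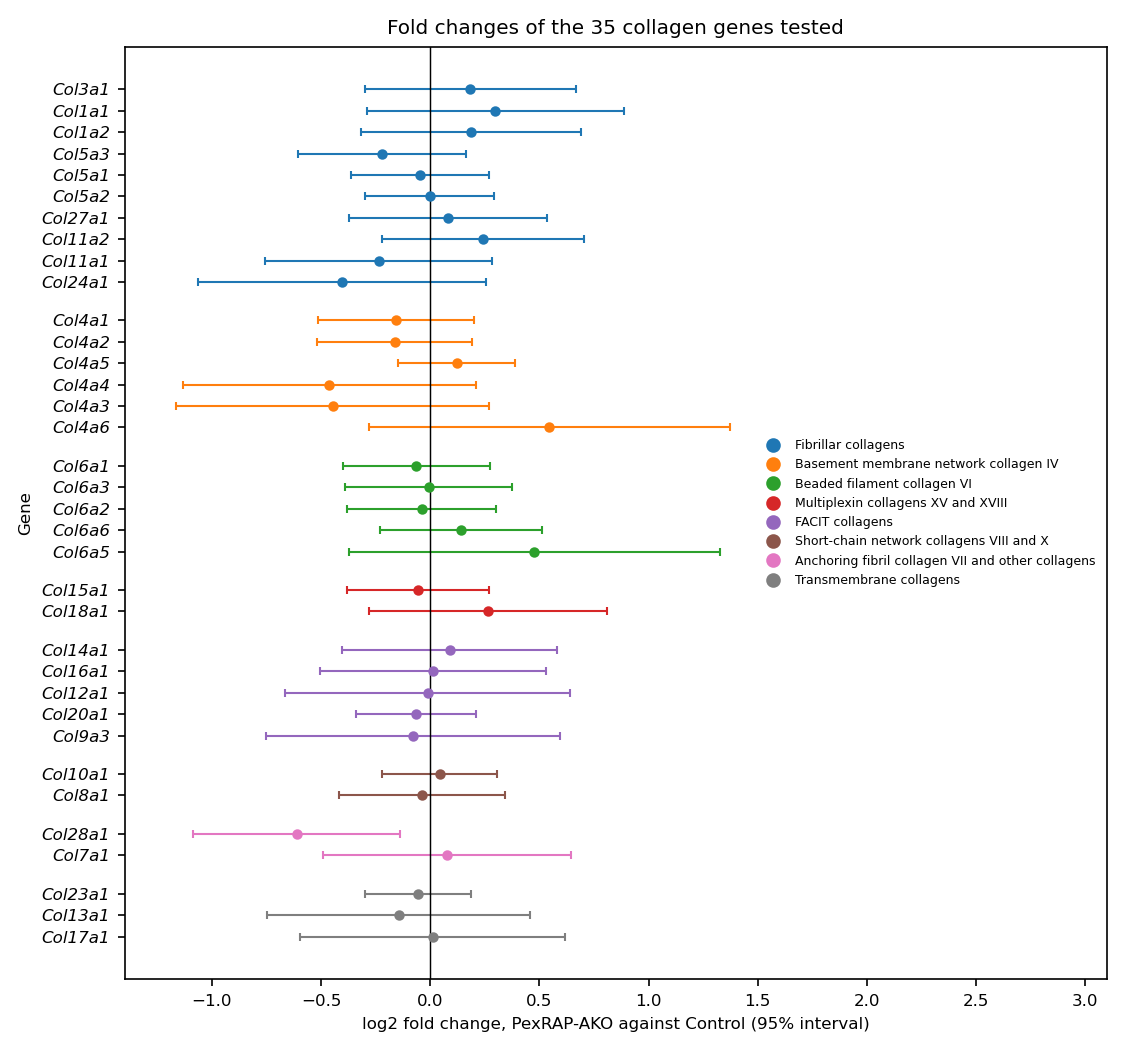
The log2 fold change of PexRAP-AKO against Control (x axis) for the 35 tested collagen genes (y axis), coloured by class and ordered by level within it, with points for the estimate of edgeR's quasi-likelihood fit and bars for its 95% interval. Every bar but that of Col28a1 (-1.08 to -0.14) crosses 0, and no gene passed after adjustment.

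The libraries held 11274865 to 19881168 counts, and their sizes overlapped between groups (permutation p = 0.627, exact and two-sided). Dhrs7b was at 61.1 to 95.6 CPM in Control and at 17.9 to 22.8 CPM in PexRAP-AKO, a log2 fold change of -2.05 (SE 0.12, edgeR quasi-likelihood, Benjamini-Hochberg adjusted p = 1.54e-05). Adipocyte markers were present in every library, with a summed level of 32404 to 42754 CPM in Control and 31359 to 40563 CPM in PexRAP-AKO over 10 of 10 genes. Other cells set single libraries apart. The 10 skeletal muscle markers summed to 1292 CPM in Control replicate 8, against 10.4 to 380 CPM in the other 9 libraries. In PexRAP-AKO replicate 6 the 10 mammary and skin epithelium markers summed to 59.4 CPM, against 10.7 to 22.9 CPM elsewhere, and the 10 T cell markers to 120.1 CPM, against 9.58 to 22.3 CPM. Of the epithelium markers, Krt18, Cdh1, Epcam, Krt8, Krt5, Krt14 and Krt17 were highest in that library, and Trp63, Krt10 and Krt15 were not. Values without a library are given below for some of the genes that it moved.

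Collagen transcripts made up 1.05% to 1.62% of a Control library and 0.971% to 1.64% of a PexRAP-AKO library. The Control mean was 1.24% ± 0.246 and the PexRAP-AKO mean 1.23% ± 0.264 (SD, n = 5 each). The ranges lay over each other almost completely. Control replicate 8 (1.62%) and PexRAP-AKO replicate 3 (1.64%) held the most, and PexRAP-AKO replicate 6 the least. A handful of chains made up most of it: Col3a1, Col1a2, Col4a1, Col1a1, Col4a2 and Col6a3 together took 73.99% to 80.6% of the collagen counts of a library.

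**Figure D2:**
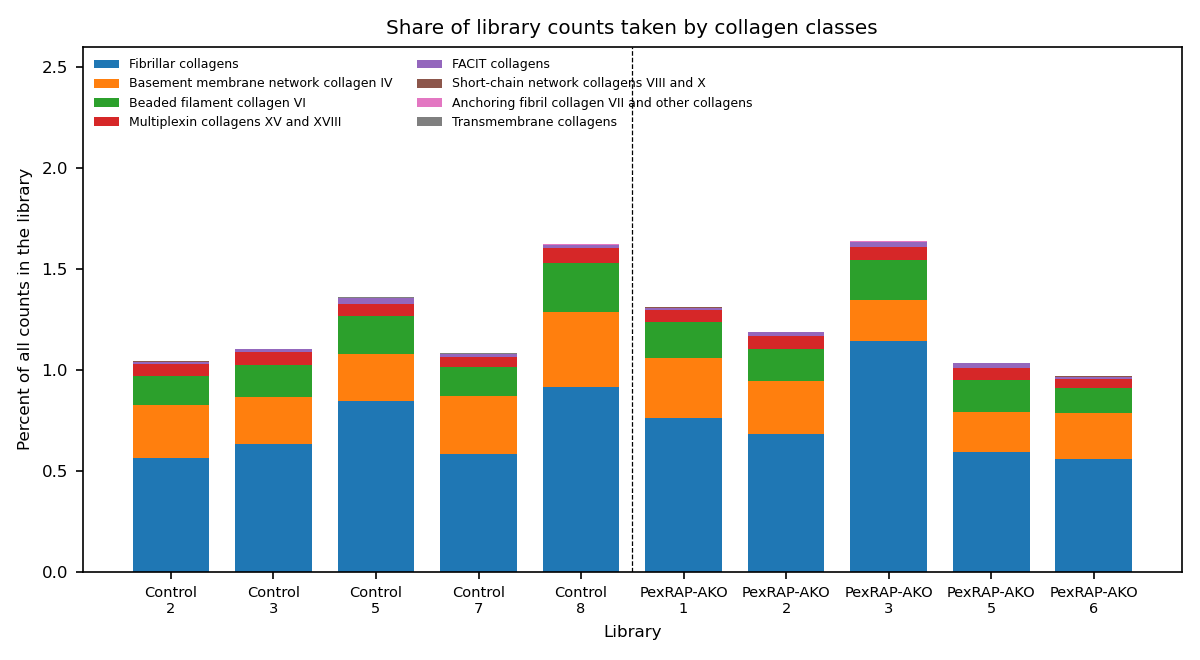
The percent of all counts in each library (y axis) taken by the 8 collagen classes, stacked, for the 5 Control and 5 PexRAP-AKO libraries (x axis). Fibrillar chains took the largest share in all 10 libraries, 0.561% to 0.913% in Control and 0.557% to 1.14% in PexRAP-AKO.

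Among fibrillar collagens, 10 of 11 genes were tested, 5 with a positive and 5 with a negative fold change, and the median log2 fold change was 0.04. Col3a1 (chromosome 1, 45311538 to 45349706), the chain of homotrimeric type III collagen, was the most abundant collagen per length. It averaged 356 CPM per kilobase of exon and stood 86th of 14904 ranked genes. In Control replicates 2, 3, 5, 7 and 8 it was at 2576, 3015, 3593, 2673 and 4512 CPM. In PexRAP-AKO replicates 1, 2, 3, 5 and 6 it was at 3897, 3564, 5672, 2792 and 2672 CPM. The groups overlapped over most of their range, with PexRAP-AKO replicate 3 above all others. The log2 fold change was 0.18 (SE 0.22, interval -0.30 to 0.67, edgeR adjusted p = 0.740).

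Type I collagen, the main load-bearing fibril of connective tissue, is made from Col1a1 (chromosome 11, 94936224 to 94953042) and Col1a2 (chromosome 6, 4504814 to 4541544). Col1a1 was at 688, 940, 1387, 789 and 1150 CPM in Control replicates 2, 3, 5, 7 and 8. It was at 1094, 1148, 2083, 923 and 846 CPM in PexRAP-AKO replicates 1, 2, 3, 5 and 6. The mean was higher in PexRAP-AKO, but 4 of its 5 libraries lay inside the Control range. Col1a2 was at 1113, 1289, 1858, 1169 and 1699 CPM in Control and at 1528, 1411, 2650, 1393 and 1136 CPM in PexRAP-AKO, in the same order of replicates. It showed the same overlap, with the highest value again in PexRAP-AKO replicate 3. The log2 fold changes were 0.30 (SE 0.27, edgeR adjusted p = 0.631) for Col1a1 and 0.19 (SE 0.23, edgeR adjusted p = 0.744) for Col1a2. Without PexRAP-AKO replicate 3 they were 0.02 and -0.06, and that of Col3a1 was -0.02. That library also had the highest summed level of the 12 fibroblast and progenitor markers (2320 CPM, against 1236 to 1949 CPM in the other 9) and of the 10 macrophage markers (1845 CPM, against 705 to 1593 CPM). The part of these cells in the result was not tested.

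Type V collagen nucleates and limits the width of type I fibrils. Col5a1 (log2 fold change -0.05) and Col5a2 (-0.0025), its common chains, stood at 401 ± 69.1 and 362 ± 39.4 CPM in Control, and at 388 ± 73.7 and 362 ± 76.0 CPM in PexRAP-AKO mice (SD, n = 5 each). Col5a3, the chain with the narrowest tissue range of the type, was at 408, 356, 316, 373 and 531 CPM in Control replicates 2, 3, 5, 7 and 8. In PexRAP-AKO replicates 1, 2, 3, 5 and 6 it was at 444, 403, 316, 248 and 291 CPM. Its lowest values, in PexRAP-AKO replicates 5 and 6, lay below every Control library, and the other 3 lay within 1 CPM of the Control range or inside it. Its highest value was in Control replicate 8. The fit gave a log2 fold change of -0.22 (SE 0.18, edgeR adjusted p = 0.586), and -0.10 without Control replicate 8. Col24a1, a minor fibrillar chain, averaged 0.823 ± 0.234 CPM in Control mice and 0.614 ± 0.219 in PexRAP-AKO mice (SD, n = 5 each, log2 fold change -0.40, edgeR adjusted p = 0.557). Col27a1, Col11a1 and Col11a2 had fold changes of either sign between -0.24 and 0.24. Col2a1, the cartilage chain, had 12 counts over all 10 libraries and was not tested.

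**Figure D3:**
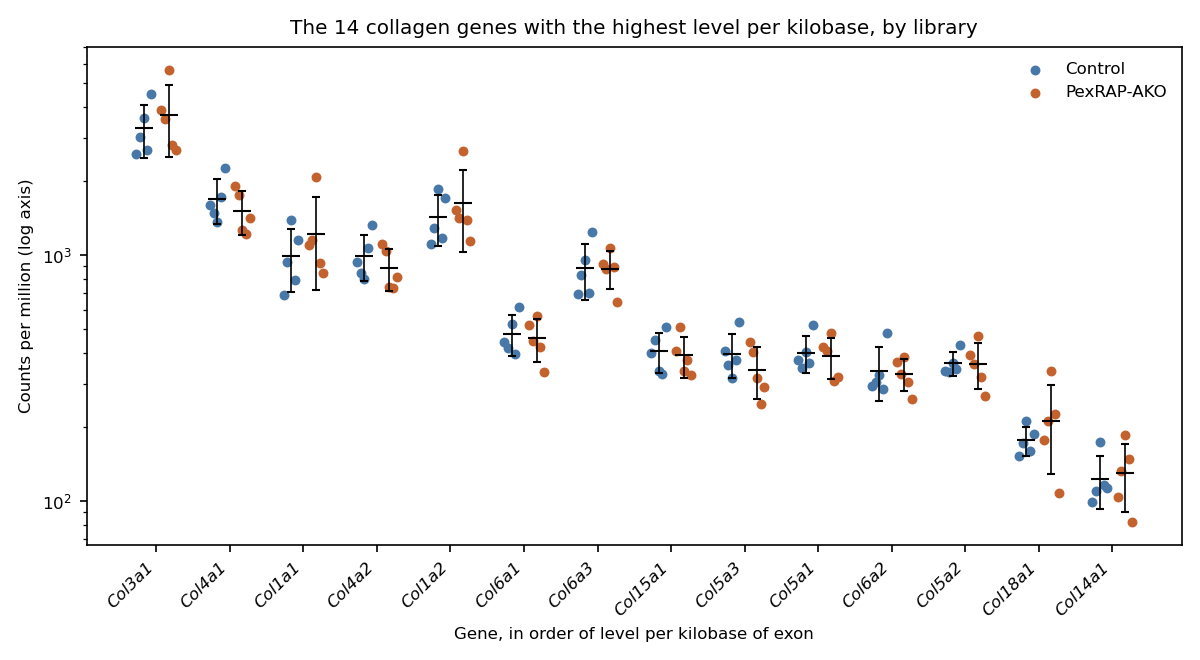
CPM (y axis, log scale) of the 14 collagen genes with the highest level per kilobase of exon (x axis), with 1 point a library and black marks for the mean ± SD of the 5 Control (blue) and 5 PexRAP-AKO (orange) libraries. The groups overlap for all 14, and PexRAP-AKO replicate 3 is the highest point of Col3a1 (5672), Col1a1 (2083) and Col1a2 (2650).

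The type IV genes lie in head-to-head pairs, each pair firing in opposite directions from a shared region. In GENCODE M21 (GRCm38), Col4a1 and Col4a2 on chromosome 8 overlap by 22 bases at their starts, Col4a4 and Col4a3 on chromosome 1 are 71 bases apart, and Col4a6 and Col4a5 on chromosome X are 1308 bases apart. RefSeq promoter sequences (GRCm38.p6) were found for 35 of the 44 members. The stretches below are shown because they lie between partner chains whose ratio varied little between libraries (Col4a4 and Col4a3) or about as much as the more variable of the chains (Col4a5 and Col4a6), as given below with the ratios. Both are on the plus strand, 5′ to 3′. Capitals mark a match, on either strand, to any of the searched motifs: the CCAAT box, the GC box GGGCGG and the TATA box TATAAA, which do not overlap here.
Between Col4a4 and Col4a3, chr1:82586850-82586920: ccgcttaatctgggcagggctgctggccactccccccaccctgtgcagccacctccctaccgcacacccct
Before Col4a5 on the side facing Col4a6, chrX:141475169-141475384: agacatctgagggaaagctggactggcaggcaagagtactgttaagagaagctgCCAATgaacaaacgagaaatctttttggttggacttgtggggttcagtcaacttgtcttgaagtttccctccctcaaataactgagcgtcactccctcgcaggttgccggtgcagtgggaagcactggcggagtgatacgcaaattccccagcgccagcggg

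The whole interval between Col4a4 and Col4a3 is 69.0% G and C and holds 0 of the 3 motifs. In windows of the same 71 bases before the start, 20.7% of 32817 RefSeq promoters hold GGGCGG, 13.3% CCAAT and 4.42% TATAAA. The 216 bases before the GENCODE start of Col4a5 are 52.3% G and C and hold 1 CCAAT. In that length before the RefSeq start, 30.8% of promoters hold CCAAT. In the 250 bases before their RefSeq starts, Col4a1 holds 1 CCAAT and Col4a2 holds 1 CCAAT and 2 GGGCGG. Col4a5 holds 1 CCAAT and 1 GGGCGG there, and that GGGCGG is not within the stretch printed. Col4a6 holds 1 GGGCGG and Col4a4 holds 0 of the 3 motifs. Of promoters, 33.8% have at least 1 CCAAT and 32.7% at least 1 GGGCGG in 250 bases. These are matches of letters in the windows searched.

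All 6 type IV genes were tested, 2 with a positive and 4 with a negative fold change, and the median log2 fold change was -0.16. Col4a1 and Col4a2 make the trimer found in nearly all basement membranes, and stood at 214 and 142 CPM per kilobase, with only Col3a1 above Col4a1. Col4a1 was at 1600, 1484, 1357, 1724 and 2259 CPM in Control replicates 2, 3, 5, 7 and 8. In PexRAP-AKO replicates 1, 2, 3, 5 and 6 it was at 1906, 1755, 1266, 1222 and 1416 CPM. Control replicate 8 was the highest, PexRAP-AKO replicates 3 and 5 the lowest, and the rest overlapped. The log2 fold change was -0.16 (SE 0.16, interval -0.51 to 0.20, edgeR adjusted p = 0.695), and -0.03 without Control replicate 8. Col4a2 ran in parallel, at -0.16 (SE 0.16, edgeR adjusted p = 0.675) with all libraries and at -0.04 without Control replicate 8.

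Col4a3 and Col4a4, which with Col4a5 build the basement membrane of the kidney filter and a few other tissues, were far lower, at 0.795 and 1.46 CPM per kilobase. Col4a4 was at 23.3, 12.9, 10.7, 18.6 and 24.8 CPM in Control replicates 2, 3, 5, 7 and 8, and at 17.2, 11.9, 11.01, 6.55 and 18.0 CPM in PexRAP-AKO replicates 1, 2, 3, 5 and 6. Control replicates 2, 7 and 8 lay above every PexRAP-AKO library, and Control replicates 3 and 5 among them. Col4a3 was at 11.2, 5.88, 4.91, 10.8 and 13.2 CPM in Control and at 8.40, 6.75, 4.94, 3.68 and 9.45 CPM in PexRAP-AKO. The same 3 Control libraries were the highest for Col4a3. The log2 fold changes were -0.46 (SE 0.30, edgeR adjusted p = 0.501) for Col4a4 and -0.45 (SE 0.32, edgeR adjusted p = 0.547) for Col4a3. Without PexRAP-AKO replicate 5 they were -0.30 and -0.30, and without Control replicate 8 they were -0.32 and -0.28. Col4a3 shares 5.65% of its exonic bases with an antisense transcript, and without a stated strand those reads cannot be separated.

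The low values of Col4a1, Col4a2, Col4a3 and Col4a4 came from the same 3 libraries, a pattern noticed after the values were seen. Control replicate 5 and PexRAP-AKO replicates 3 and 5 were the lowest 3 of the 10 for Col4a1, Col4a2, Col4a3 and Col4a4 alike. Col4a5 and Col4a6 did not follow. In that order of libraries Col4a5 was at 19.45, 23.1 and 18.5 CPM, against 13.8 to 18.7 CPM in the other 7. Col4a6 was at 1.10, 1.44 and 1.88 CPM, against 0.908 to 4.30 CPM. The same 3 had the highest summed level of the 8 brown adipocyte markers, at 2230, 2882 and 2847 CPM, against 263 to 1448 CPM in the other 7. They also had the lowest summed level of the 10 adipocyte markers, at 32404, 31359 and 31488 CPM, against 35790 to 42754 CPM. Fabp4 and Cfd were the largest members of that sum. Adipoq, Plin1, Lep, Fabp4 and Lipe were lowest in the same 3 libraries, and Cidec, Pparg, Cfd, Retn and Slc2a4 were not. Their macrophage sums were the highest, at 1593, 1845 and 1285 CPM, against 705 to 1062 CPM. All 8 brown adipocyte markers were positive, with a median log2 fold change of 0.88, and 0 passed in edgeR. At an unadjusted p under 0.05 there were 2, against 9.01% of all genes higher. None of these markers was at 0 in any library. The parts of brown adipocyte, adipocyte and macrophage content in the values of Col4a1 to Col4a4 were not tested.

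Col4a6, which pairs with Col4a5 in epithelial and smooth muscle basement membranes, was at 1.61, 1.01, 1.103, 1.79 and 1.52 CPM in Control replicates 2, 3, 5, 7 and 8. In PexRAP-AKO replicates 1, 2, 3, 5 and 6 it was at 1.54, 0.908, 1.44, 1.88 and 4.30 CPM. Only PexRAP-AKO replicate 6 stood apart, at more than any other library. The fitted log2 fold change was 0.55 (SE 0.38, edgeR adjusted p = 0.526) and 0.05 without that library. Col4a5, on the other side of the shared region, averaged 16.95 ± 1.67 CPM in Control mice and 18.5 ± 3.28 in PexRAP-AKO mice (SD, n = 5 each, log2 fold change 0.12).

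Type VI collagen is abundant around adipocytes, and a fragment of its alpha 3 chain circulates as endotrophin. Of 6 genes, 5 were tested, with a median log2 fold change of -0.0067. Col6a1 was at 442, 417, 522, 397 and 614 CPM in Control replicates 2, 3, 5, 7 and 8, and at 518, 448, 566, 424 and 334 CPM in PexRAP-AKO replicates 1, 2, 3, 5 and 6. Col6a3 was at 696, 832, 953, 699 and 1245 CPM in Control and at 917, 879, 1070 and 894 CPM in PexRAP-AKO replicates 1, 2, 3 and 5, with 644 CPM in replicate 6. For Col6a1, Col6a2 and Col6a3 alike, Control replicate 8 was the highest library and PexRAP-AKO replicate 6 the lowest. The log2 fold changes were -0.06 (SE 0.15), -0.04 (SE 0.16) and -0.0067 (SE 0.17), with edgeR adjusted p of 0.884, 0.930 and 0.989. Without these libraries together they were 0.14, 0.20 and 0.24, an alternative chosen after seeing the data.

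Multiplexins lie at basement membranes and release antiangiogenic fragments, endostatin from type XVIII among them. Col18a1 was at 152, 172, 212, 159 and 186 CPM in Control replicates 2, 3, 5, 7 and 8, and at 177, 211, 337, 226 and 108 CPM in PexRAP-AKO replicates 1, 2, 3, 5 and 6. PexRAP-AKO replicate 3 was the highest of the 10 and replicate 6 the lowest, so 1 group held both ends. Its log2 fold change was 0.26 (SE 0.25, edgeR adjusted p = 0.648), and 0.03 without PexRAP-AKO replicate 3 and 0.43 without PexRAP-AKO replicate 6. Col15a1 averaged 406 ± 76.2 CPM in Control mice and 390 ± 73.6 in PexRAP-AKO mice (SD, n = 5 each, log2 fold change -0.06).

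FACIT collagens attach to the surface of fibrils. Of 9 genes, 5 were tested, with a median log2 fold change of -0.01 and values from -0.08 to 0.09. Col14a1, the highest of them, was at 99.1, 110.05, 174, 116 and 113 CPM in Control replicates 2, 3, 5, 7 and 8, and at 104, 132, 185, 149 and 81.8 CPM in PexRAP-AKO replicates 1, 2, 3, 5 and 6. Control replicate 5 and PexRAP-AKO replicate 3 were the high libraries of the 2 groups. The same libraries were the high ones for Col16a1, at 34.7 and 33.9 CPM, against 16.4 to 24.6 CPM in the others. For Col12a1, Control replicate 5 (35.7 CPM) and PexRAP-AKO replicate 5 (28.6 CPM) were high, against 13.4 to 23.9 CPM in the others. Without Control replicate 5 the log2 fold changes were 0.31 for Col12a1, 0.25 for Col14a1 and 0.23 for Col16a1. With all libraries they were -0.01, 0.09 and 0.01.

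The remaining classes were low. Col10a1 (2.24 CPM per kilobase) and Col8a1 (1.04), which form short-chain networks, had log2 fold changes of 0.04 and -0.04. The transmembrane chains Col23a1, Col13a1 and Col17a1 had -0.06, -0.14 and 0.01. Col17a1, a part of hemidesmosomes in skin, was at 3.17 CPM in PexRAP-AKO replicate 6 and at 1.22 to 1.95 CPM in the other 9 libraries. Col7a1, the anchoring fibril chain of skin, was also highest in that library, at 2.89 CPM against 1.12 to 2.11 CPM. Without it the log2 fold changes were -0.34 for Col17a1 and -0.16 for Col7a1, in place of 0.01 and 0.07. Of the 10 epithelial markers, 5 averaged under 1 CPM and 7 were at 0 in at least 1 library. Trp63, Krt10 and Krt15 among them were not highest in PexRAP-AKO replicate 6, and the rest were. The part of epithelium in the values of Col4a6, Col17a1 and Col7a1 was not tested.

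Col28a1, a collagen known from the basement membranes around Schwann cells, had the smallest p of the members. In Control replicates 2, 3, 5, 7 and 8 it was at 12.1, 7.19, 12.1, 10.6 and 17.6 CPM. In PexRAP-AKO replicates 1, 2, 3, 5 and 6 it was at 7.43, 8.24, 5.47, 8.52 and 9.17 CPM. Control replicates 2, 5, 7 and 8 lay above every PexRAP-AKO library, and Control replicate 3 below 4 of the 5. The log2 fold change was -0.61 (SE 0.22, interval -1.08 to -0.14, edgeR unadjusted p = 0.0158), and it did not pass over all genes (Benjamini-Hochberg adjusted p = 0.221). Over 19 alternatives the log2 fold change ran from -0.75 to -0.43 and the adjusted p from 0.0943 to 0.412. The value of -0.43 was without Control replicate 8.

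Markers of Schwann cells leaned the same way as Col28a1. Of 9 tested, 7 were negative and 2 positive, the median log2 fold change was -0.32, and 5 were lower at an unadjusted p under 0.05 in edgeR, against 6.44% of all genes. Together the 10 listed markers stood at 158, 186, 232, 167 and 206 CPM in Control replicates 2, 3, 5, 7 and 8. They stood at 155, 146, 138, 161 and 161 CPM in PexRAP-AKO replicates 1, 2, 3, 5 and 6. The groups overlapped only at Control replicate 2, and no marker was at 0 in any library. The order of libraries was not that of Col28a1: the marker sum was highest in Control replicate 5 and Col28a1 in Control replicate 8. The 10 skeletal muscle markers were all negative too, with a median log2 fold change of -2.60. Of them, 6 were at an unadjusted p under 0.05, against 6.44% of all genes lower, and 0 were called in edgeR. Within Control their sums of 1292, 380, 332, 53.5 and 16.0 CPM in replicates 8, 2, 5, 7 and 3 ranked in the order of Col28a1. In PexRAP-AKO replicates 6, 3, 1, 5 and 2 the sums were 119, 110.4, 88.6, 61.6 and 10.4 CPM, an order that Col28a1 did not share. The parts of nerve and muscle content in the value of Col28a1 were not tested.

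**Figure D4:**
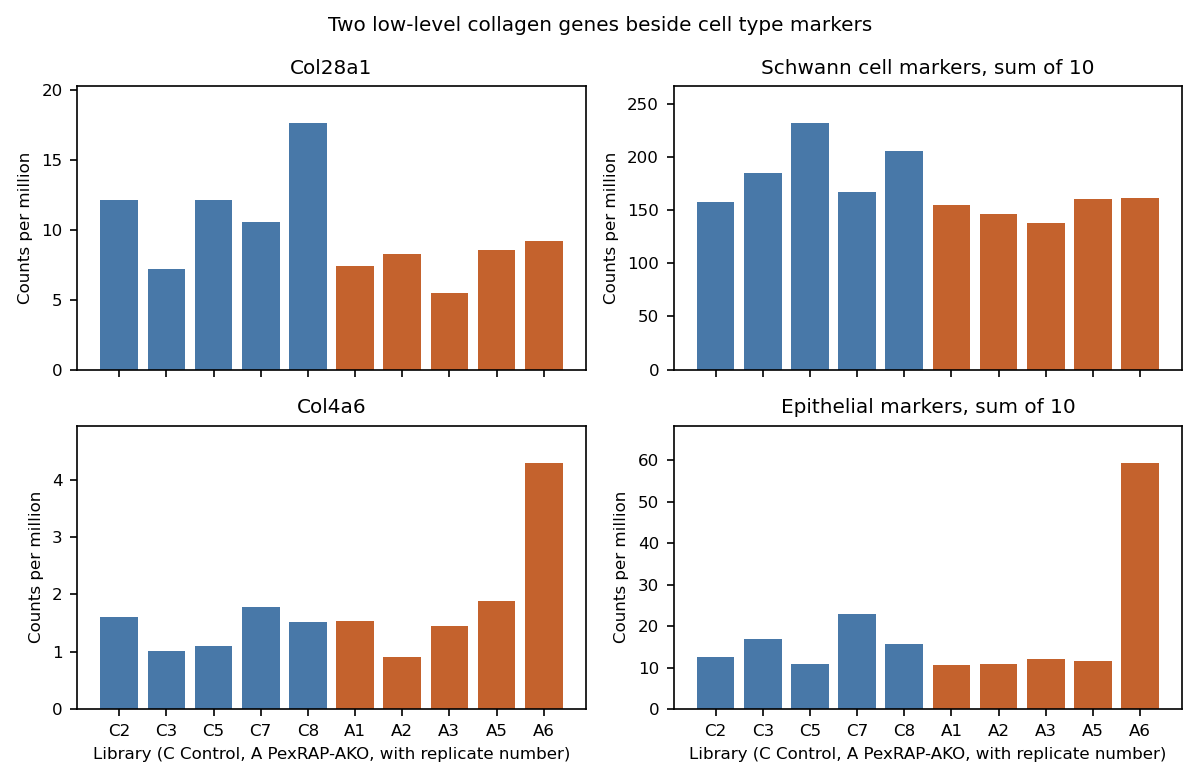
CPM (y axes) of Col28a1, the sum of 10 Schwann cell markers, Col4a6 and the sum of 10 epithelial markers in each library (x axes), as bars for 5 Control (blue) and 5 PexRAP-AKO (orange) libraries. Col28a1 peaks in Control replicate 8 (17.6) and the Schwann cell sum in Control replicate 5 (232), while Col4a6 (4.30) and the epithelial sum (59.4) are both highest in PexRAP-AKO replicate 6.

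Of the 44 genes, 9 had too few counts to be tested, with 7 to 86 counts over all libraries. They were Col2a1, Col9a1 and Col9a2 of cartilage, Col6a4, Col8a2, Col19a1, Col22a1, Col25a1 and Col26a1. Col6a4, singled out after its values were seen, had 36 of its 67 counts in PexRAP-AKO replicate 6 and at most 10 in any other library. Of 10 cartilage, tendon and bone markers, 9 averaged under 1 CPM and Ibsp was at 0 throughout.

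Partner chains differed in proportion between the groups by about their spread or less. The log2 ratio of 2 chains within a library does not depend on scaling, and 6 ratios were compared by two-sided exact permutation tests, in which p cannot go below 0.00794. Col4a1/Col4a2 averaged 0.76 ± 0.04 in Control mice and 0.77 ± 0.02 in PexRAP-AKO mice (SD, n = 5 each, difference 0.0049, permutation p = 0.818). Across the 10 libraries this ratio had an SD of 0.03, while log2 CPM of the chains had SDs of 0.28 and 0.28. Both chains thus varied about as much as each other from mouse to mouse, and together.

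Col1a1/Col1a2 averaged -0.54 ± 0.11 in Control mice and -0.43 ± 0.12 in PexRAP-AKO mice (SD, n = 5 each). The difference of 0.11 was of the size of the spread between libraries (exact permutation p = 0.175, adjusted p = 0.790 over the 6 ratios). Col3a1/Col1a1 differed by -0.10 (permutation p = 0.413), Col6a3/Col6a1 by 0.08 (permutation p = 0.349), Col6a1/Col6a2 by -0.04 (permutation p = 0.548) and Col5a1/Col5a2 by -0.03 (permutation p = 0.659). All 6 had an adjusted p of 0.790 or more. For the other type IV pairs, chosen after their values were seen and given with no test, the log2 ratio Col4a4/Col4a3 had an SD of 0.14 over the 10 libraries beside 0.58 and 0.60 for the chains. Col4a5/Col4a6 had an SD of 0.59, beside 0.21 for Col4a5 and 0.60 for Col4a6. PexRAP-AKO replicate 6 stood at 2.09 and the other 9 at 3.26 to 4.14, and without it the SD was 0.33.

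**Figure D5:**
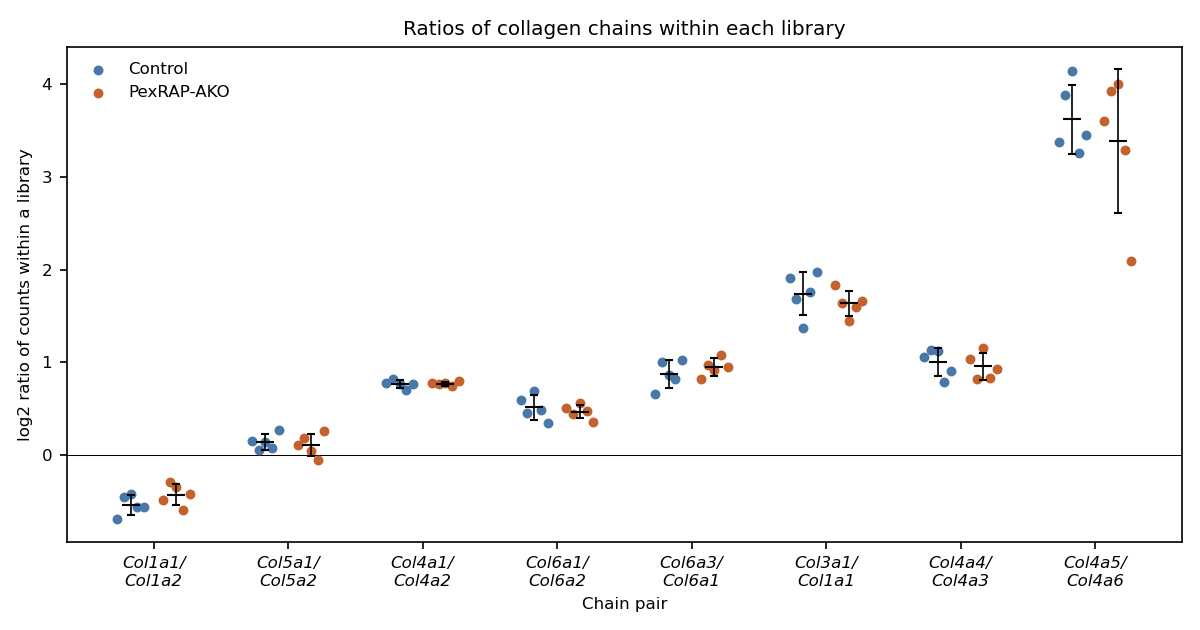
The log2 ratio of counts of 2 chains within a library (y axis) for 8 chain pairs (x axis), with 1 point a library and black marks for the mean ± SD of the 5 Control (blue) and 5 PexRAP-AKO (orange) libraries. Col4a1/Col4a2 stays between 0.70 and 0.82 in all 10 libraries, and Col4a5/Col4a6 spans 2.09 to 4.14.

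Mice differed more in the collagen transcripts above 100 CPM than in most transcripts above 100 CPM, which were pooled without matching for level. Of the 14 collagen genes above 100 CPM, all 14 had a within-group SD of log2 CPM over 0.2, against 26.9% of the 1738 genes above that level. The median SD was 0.30 for these collagens, whose SDs ran from 0.24 to 0.46, and 0.13 for all genes above that level. High and low values sat in a few libraries. Control replicate 8 was the highest of the 10 for 12 of 35 genes, among them Col4a1 to Col4a4 and Col6a1 to Col6a3, and PexRAP-AKO replicate 3 for 10, among them Col1a1, Col1a2 and Col3a1. PexRAP-AKO replicate 6 was the lowest for 8 and PexRAP-AKO replicate 5 for 7. These genes share libraries and cell types, so the counts are a description.

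Genes that make, cut, bind, break down or sense collagens did not pass either. Of 115 listed symbols 114 were found and 108 tested, and 0 passed edgeR's adjusted threshold. At an unadjusted p under 0.05, 6 were lower (5.56%, against 6.44% of all genes) and 0 higher (against 9.01%). DESeq2 called 1, Hspg2, against 3.75% of the genes it adjusted. The median log2 fold change was -0.04, with 38 positive and 70 negative.

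Procollagen is hydroxylated, folded and exported with the help of a set of endoplasmic reticulum proteins. Of 21 tested, 0 were under an unadjusted p of 0.05. P4ha2, a prolyl 4-hydroxylase subunit, averaged 27.1 ± 2.13 CPM in Control mice and 24.1 ± 2.67 in PexRAP-AKO mice, and Ppib, a prolyl isomerase, at 32.6 ± 5.13 and 37.7 ± 3.70 CPM (SD, n = 5 each). Plod3, a lysyl hydroxylase, had a log2 fold change of -0.11, and Mia2, of the export machinery, 0.09. Among 13 genes of propeptide cleavage and crosslinking, Tll1, a tolloid-like protease, was at -0.46 (SE 0.17, edgeR adjusted p = 0.235). Lox, the lysyl oxidase that crosslinks fibrils, averaged 161 ± 33.0 CPM in Control mice and 126 ± 38.6 in PexRAP-AKO mice (SD, n = 5 each, log2 fold change -0.35). Loxl4 was at 0.23 and Adamts14, which removes amino-terminal propeptides, at 0.21. Without PexRAP-AKO replicate 3 they were at 0.01 and 0.07.

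Of 18 matrix proteins that bind collagen, 5 had a positive and 13 a negative fold change. Prelp, a leucine-rich proteoglycan that ties basement membrane to fibrils, averaged 339 ± 103 CPM in Control mice and 215 ± 72.5 in PexRAP-AKO mice (SD, n = 5 each, log2 fold change -0.65, SE 0.26, edgeR adjusted p = 0.274). Sparc, a collagen chaperone outside the cell, was at -0.28 (SE 0.15). It was at -0.17 without Control replicate 8. Lum and Postn, which lie on fibrils, were at 0.69 (SE 0.43) and 0.62 (SE 0.42), and at 0.28 and 0.16 without PexRAP-AKO replicate 3, their highest library.

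All 10 basement membrane partners of type IV collagen were negative, with a median log2 fold change of -0.14. In edgeR 2 of them were under an unadjusted p of 0.05, against 6.44% of all genes lower. Hspg2, which encodes perlecan, was at 1627, 1510, 1568, 1679 and 1994 CPM in Control replicates 2, 3, 5, 7 and 8. In PexRAP-AKO replicates 1, 2, 3, 5 and 6 it was at 1437, 1473, 1251, 1245 and 1388 CPM. The groups did not overlap for Hspg2, nor for Itga1 below, which made 1.85% of the 108 pathway genes against 3.41% of all genes. The log2 fold change was -0.30 (SE 0.10), with an adjusted p of 0.2001 in edgeR and 0.0313 in DESeq2, and 0.0313 to 0.515 over 19 alternatives. The laminin chains Lamb2 (-0.24, SE 0.10) and Lama5 (-0.34, SE 0.18) and agrin, Agrn (-0.14, SE 0.06), had an edgeR adjusted p of 0.297, 0.395 and 0.336. Without PexRAP-AKO replicate 3, Lama5 was at -0.20.

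Endothelial markers, from cells that are rich in basement membrane, stood the same way. All 10 were negative, with a median log2 fold change of -0.27. In edgeR 3 were under an unadjusted p of 0.05, against 6.44% of all genes lower at that bound, and 0 passed. Their summed level was 906 to 1098 CPM in Control and 645 to 921 CPM in PexRAP-AKO, with none at 0. PexRAP-AKO replicate 3 held the least, and it was also among the lowest for Col4a1 and Hspg2. Of 10 pericyte and smooth muscle markers 9 were negative, and their sum was 825 to 987 CPM in Control and 565 to 846 CPM in PexRAP-AKO. The part of vessel content in the values of Hspg2 and the type IV chains was not tested.

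Collagen breakdown genes were split evenly, with 8 of 16 positive. Timp4 and Timp3, inhibitors of metalloproteinases, were at -0.51 (SE 0.29) and -0.21 (SE 0.11), and the proteases Mmp3 and Mmp19 at 0.46 (SE 0.27) and 0.17 (SE 0.09). Leaving out 1 library put Timp4 at -0.80 (PexRAP-AKO replicate 1), Timp3 at -0.13 (Control replicate 5) and Mmp3 at 0.21 (PexRAP-AKO replicate 3). Of 13 receptors, 4 were positive and 9 negative. Itga1, the collagen-binding integrin chain with a preference for type IV, averaged 118 ± 7.66 CPM in Control mice and 101 ± 8.78 in PexRAP-AKO mice (SD, n = 5 each, log2 fold change -0.22, SE 0.07, edgeR adjusted p = 0.202). Adgrg1, a type III collagen receptor, was at -0.30 (SE 0.13, edgeR adjusted p = 0.315), Itga11 at -0.19 and the leukocyte receptor Lair1 at 0.54 (SE 0.41). Without PexRAP-AKO replicate 3, Adgrg1 was at -0.20 and Lair1 at -0.03. In the TGF-beta axis, a main inducer of fibrillar collagen genes, 17 genes had a median of -0.07. Smad4 was at -0.10, Tgfbr3 at -0.12, Ltbp3 at -0.17 and Smad7 at -0.25, each with an edgeR adjusted p of 0.331 or more.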

How the data were processed

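RNA-seq was done on inguinal white fat of 10 mice, 5 per group. Per the labels' protocols, RNA came from a lipid tissue column kit and libraries from Illumina's method. The authors deposited raw counts of reads for each gene. The submitters' processing notes list STAR 2.0.4b, Subread, featureCounts and edgeR. Genome build, annotation and strand setting were not given in the sources used here. Of 40724 rows, 117 identifiers stood in more than 1 row with equal counts, and 1 row of each was kept. All 44 members were found in GENCODE M21, which gave coordinates and exonic lengths (the union of all exons). Levels between genes are compared only per kilobase.

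edgeR 4.0.16 (R 4.3.3) scaled the counts by TMM, and genes were filtered with filterByExpr (minimum count 10, minimum total 15), leaving 14913 genes. Group effects were tested by edgeR's quasi-likelihood method (glmQLFit, robust) on the 10 samples without covariates. P-values were adjusted by Benjamini-Hochberg over all genes, with a threshold of 0.05. It was tested on simulated data. A standard error is the absolute log2 fold change over the square root of its F value. Spreads used log2 CPM (prior count 2). Ratios and library sizes were compared by exact permutation tests. Within-group pairs of libraries differed by at least 7.08 chi-square per degree of freedom, so none was counted as a repeat. The labels number the samples without stating that each is a separate mouse, which is assumed here, so p-values measure the spread between these samples. The alternatives used DESeq2 1.42.0, limma 3.58.1, other scalings, no filter, the replicate block and leaving out libraries. Members and lists were chosen with earlier results of these data known. The text names the 3 highest members per class, the 6 with the smallest p, and up to 4 genes by p per pathway list; a further gene with values is given for a chain ratio or is said to be chosen after its values were seen. The values of 1 Schwann cell marker are not reported here.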

Additional observations from a re-analysis of the deposited data

Results flagged for a closer look

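In 84 groups of 5 values (the log2 CPM of each tested collagen gene, the 6 chain ratios and the collagen share), 3 held 1 library that stood far from the rest. By chance about 4.2 such groups would be found. Col14a1 stood at 174 CPM in Control replicate 5, against 99.1 to 116 CPM in the other Control libraries. Col16a1 stood at 34.7 CPM in the same library, against 17.5 to 21.1 CPM. Both encode FACIT collagens. Col6a2, a type VI chain, stood at 484 CPM in Control replicate 8, against 285 to 325 CPM in the other Control libraries.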

How the results depend on the processing

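Of 35 tested collagen genes, 0 were called in any of 19 alternatives, and none of the 665 gene values moved across the threshold. A DESeq2 value without an adjusted p was counted as not called, so it could not move. The sign of 20 of the genes, uncalled throughout, turned in at least 1 alternative. For the pathway genes the count was 0 in every alternative but DESeq2, where it was 1 (Hspg2). Dhrs7b kept its call in all 19, with log2 fold changes of -2.14 to -1.99. The count over all genes was 15, and it ran from 3 to 58 with 1 library left out, was 26 with no filter, 107 with sample quality weights and 415 with DESeq2. DESeq2 gave no adjusted p for 19 of the 44 collagen genes. With the replicate block (numbers 2, 3 and 5, 6 libraries), 0 collagen and 0 pathway genes were called, and 3 genes in all. Same-numbered samples had correlations of their deviations of -0.03, -0.08 and 0.36, and the pairing was not used elsewhere. Under the block 4 collagen genes had an unadjusted p under 0.05 (Col18a1, Col28a1, Col4a3 and Col4a4). The share of all genes under that bound with the block is not given here, so this count has nothing to be set against. The difference in collagen share was -0.01 percentage points and ran from -0.12 to 0.08 with 1 library left out. The fit without both PexRAP-AKO replicate 6 and Control replicate 8, which called 5 genes in all, was chosen after seeing the data. Leaving out 1 library moved Ppib to 0.31 (without Control replicate 5), Plod3 to -0.17 (without PexRAP-AKO replicate 1) and Smad7 to -0.39 (without PexRAP-AKO replicate 6). Depth limits the 9 untested genes.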
